A study of Homo sapiens with 6 samples.

Results

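SR proteins and heterogeneous nuclear ribonucleoproteins (hnRNPs) are RNA-binding proteins that decide which exons of a pre-mRNA are kept. The genes described here are 41 such splicing factors, chosen by symbol from the 55765 gene names of the deposited table: 13 SR and TRA2 genes, 18 hnRNP genes, 3 polypyrimidine tract-binding (PTB) genes, 5 regulators known for tissue-restricted splicing (RBFOX2, MBNL1, MBNL2, ESRP1, QKI), and TAF15 with TARDBP. All 41 symbols were found. The samples are RNA-seq libraries of SK-NEP-1, a line labelled as Wilms tumor of the kidney, and the comparison asked how transcript levels differ when EHMT2, which encodes a histone H3 lysine 9 methyltransferase, is targeted. The 3 siEHMT2 libraries came from cells given a small interfering RNA against EHMT2 and the 3 siNC libraries from cells given a control small interfering RNA; the labels name no time point, dose or siRNA sequence, and do not say whether libraries of a group are separate cultures. The p-values therefore cover only how far these libraries differ from each other, and that spread may be technical.

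In general, SR proteins bind exonic enhancers through RNA recognition motifs and recruit the spliceosome through a domain rich in arginine and serine, whereas many hnRNPs bind silencers and favour skipping. Kinases of the SRPK and CLK families phosphorylate the arginine-serine domain and so set where SR proteins reside and how they act. Many genes of both families carry a "poison" exon or intron whose inclusion sends the transcript to nonsense-mediated decay, and the proteins adjust their own level that way.

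Before the results, the libraries themselves differed in ways the groups do not describe. Values are FPKM, fragments per kilobase of transcript and per library size; they summed to between 244702 and 272271 per library, and the absolute depth is unknown because no read counts were used. EHMT2 was at 7.61, 8.26 and 16.2 FPKM in siEHMT2 replicates 1, 2 and 3 and at 27.5, 27.2 and 22.7 in the siNC libraries, so the groups did not overlap and siEHMT2 replicate 3 kept the most of its group; the limma adjusted p was 0.0609, above the threshold of 0.05, and EHMT2 was called in 5 of 19 alternative settings (log2 fold change −1.67 to −1.08). In that library the deviation of a gene from its mean also followed transcript GC content most closely (Spearman rho 0.573 across genes, against −0.339 to 0.111 in the other 5). Of the 8 nephron and Wilms tumor markers, 5 had a mean of at least 1 FPKM, with SIX2 (0.164) and PAX2 (0.0786) close to 0. All 8 together summed to 11.8 to 12.3 FPKM in siEHMT2 and 11.3 to 12.1 in siNC. Of 8 Ewing sarcoma markers, 7 reached that mean, and all 8 summed to 303 to 337 against 334 to 354 FPKM. These data therefore go against the labelled tumor type as far as such markers show it.

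SRSF3, SRSF6 and SRSF12 had the same highest and lowest library, as did SRSF2, SRSF4 and TRA2B, and SRSF12 had the largest difference among the SR genes. Promoters are shown for SRSF3, SRSF6 and SRSF12, a choice made after the values were seen. Each is the 250 bases before the RefSeq gene start in GRCh38.p14, written 5′ to 3′ on the strand of the gene; SRSF3 lies at chr6:36594112-36594361 (plus strand), SRSF6 at chr20:43457646-43457895 (plus strand) and SRSF12 at chr6:89118072-89118321 (minus strand). Capitals mark CCAAT boxes (CCAAT) and GC boxes (GGGCGG), each on either strand.
SRSF3: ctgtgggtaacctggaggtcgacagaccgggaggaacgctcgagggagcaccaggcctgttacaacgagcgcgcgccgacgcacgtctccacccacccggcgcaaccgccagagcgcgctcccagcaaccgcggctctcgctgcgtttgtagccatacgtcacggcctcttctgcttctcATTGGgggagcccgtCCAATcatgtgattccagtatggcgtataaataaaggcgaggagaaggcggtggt
SRSF6: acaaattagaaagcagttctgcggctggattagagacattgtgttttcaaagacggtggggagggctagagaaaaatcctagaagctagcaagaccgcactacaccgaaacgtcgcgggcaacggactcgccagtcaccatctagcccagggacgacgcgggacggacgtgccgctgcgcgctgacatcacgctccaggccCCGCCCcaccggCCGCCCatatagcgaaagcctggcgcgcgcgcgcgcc
SRSF12: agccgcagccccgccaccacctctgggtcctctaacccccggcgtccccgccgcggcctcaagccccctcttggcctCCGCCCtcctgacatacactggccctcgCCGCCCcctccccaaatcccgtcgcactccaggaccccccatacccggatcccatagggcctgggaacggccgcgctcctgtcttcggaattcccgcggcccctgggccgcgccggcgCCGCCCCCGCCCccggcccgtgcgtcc
SRSF3 held 2 CCAAT boxes and no GC box, and TATAAA once in lower case; SRSF6 held 2 GC boxes and SRSF12 4 GC boxes, 2 of them adjoining. The RefSeq table held a promoter for 34 of the 41 genes. A GC box was in 23 of the 34 (67.6%, against 42.3% of 27305 promoters), a CCAAT box in 13 (38.2% against 33.0%), an ETS core (CCGGAAG) in 4 (11.8% against 8.82%) and a TATA box (TATAAA) in 4 (11.8% against 11.1%). The 34 windows held between 3 and 36 CpG dinucleotides, with a median of 25 against 11 over all promoters. The 27305 promoters were not limited to genes tested here, so neither the shares nor the CpG counts compare like sets. These matches describe letters in a window and not bound sites.

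The splicing factors spanned a wide range of levels, and together they took 0.954% to 1.11% of each library's FPKM sum. HNRNPA1, which binds exonic silencers and packages pre-mRNA, was the most abundant, at 269.7, 263 and 277 FPKM in siEHMT2 and 242, 220 and 283 in siNC. SRSF2, an SR protein that stays in the nucleus, came next with a mean of 180.5 FPKM over the 6 libraries, before HNRNPA2B1 (166), SRSF1 (149) and HNRNPK (132). Only 1 gene had a mean under 1 FPKM and was not tested, namely ESRP1, a regulator of epithelial splicing, at 0.664, 0.733 and 0.731 in siEHMT2 and 0.526, 0.360 and 0.5005 in siNC. Of 5 epithelial markers KRT18 alone reached a mean of 1 FPKM, and CDH1 was at 0.0152. The other 40 genes ranged from the 259 FPKM of HNRNPA1 down to the 3.44 FPKM of MBNL2.

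**Figure D1:**
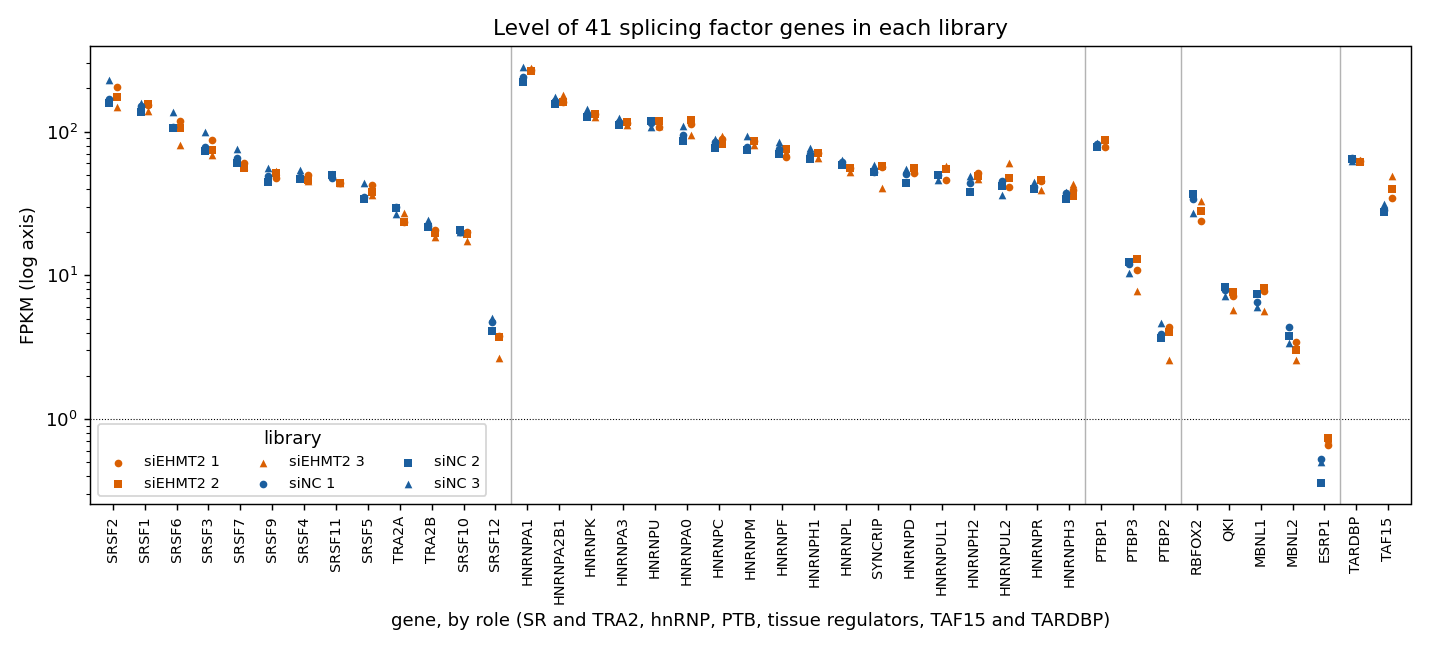
FPKM (log axis) of each of the 41 genes in each library, with siNC libraries in blue and siEHMT2 libraries in orange and 1 marker shape per replicate number; the dotted line is the minimum mean of 1 FPKM for testing. The points of both groups lie close together for most genes, and ESRP1 is the only gene below the line.

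None of the 40 tested genes passed the threshold (limma on log2(FPKM + 1) over 12859 genes, Benjamini-Hochberg adjusted p under 0.05), where 71 genes or 0.552% of all tested genes did. At an unadjusted p under 0.05 there were 2, TAF15 and SRSF12, against 18.8% of all tested genes. By sign, 17 were higher in siEHMT2 and 23 lower; the median log2 fold change was −0.04, beside 0.01 over all tested genes. The split depended on the setting: it was 11 higher and 29 lower after rescaling to the same sum (median −0.08), 23 and 17 with the GC correction (median 0.01) and 26 and 14 without both libraries numbered 3 (median 0.04). The groups did not overlap for 6 of the 40, 1 higher and 5 lower, where 26.3% of all tested genes did not overlap (14.6% higher and 11.7% lower). The 95% confidence interval of the difference lay between −1 and 1 on the log2 scale for all 40, and between −0.5 and 0.5 for 32. Of all 12859 tested genes, 12374 lay within the wider bounds and 7296 within the narrower. In bulk RNA, fewer cells of a type and less RNA per cell cannot be told apart.

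**Figure D2:**
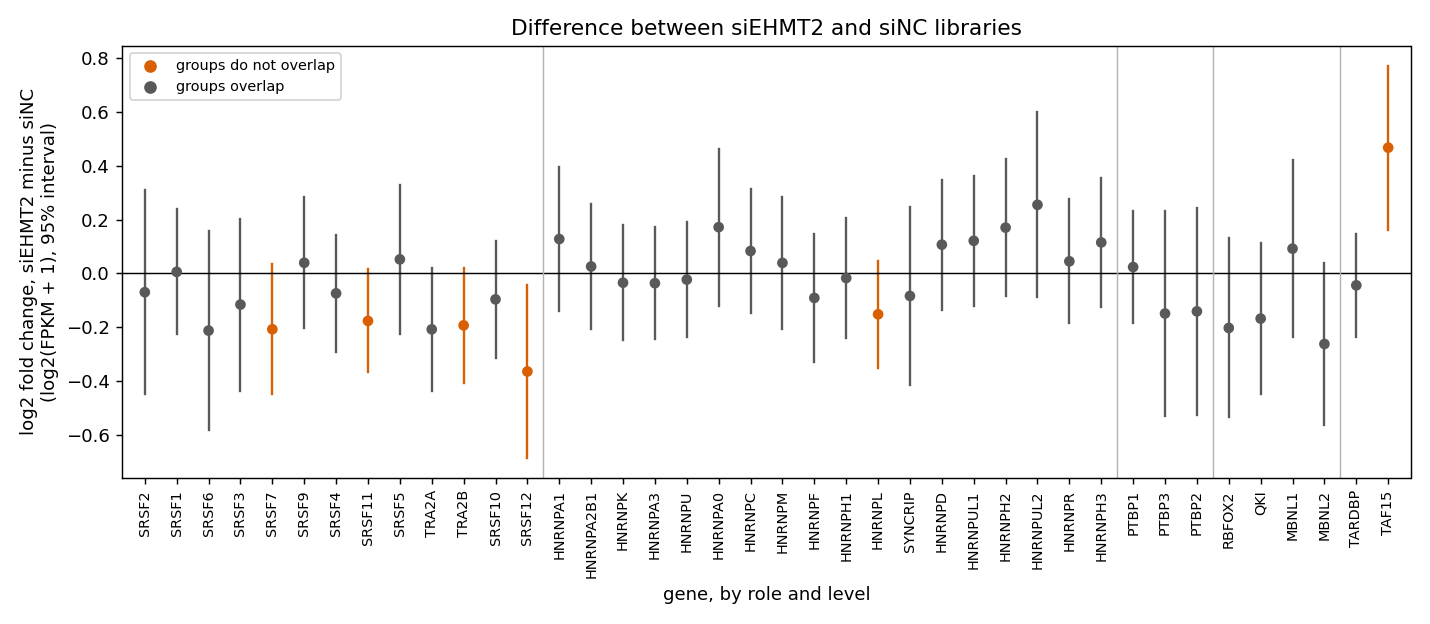
Log2 fold change (siEHMT2 minus siNC, on the log2(FPKM + 1) scale) of the 40 tested genes with its 95% confidence interval, by role and then by level. Orange marks the 6 genes whose groups do not overlap; the interval of TAF15 lies above 0 and that of SRSF12 below 0.

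Among the 13 SR and TRA2 genes, siEHMT2 was lower for 10 and higher for 3 (median log2 fold change −0.12), and none passed. SRSF12, a less abundant SR-related protein with reported tissue-restricted expression, was at 3.802, 3.71 and 2.64 FPKM in siEHMT2 and 4.70, 4.10 and 5.06 in siNC. The groups did not overlap, and the siEHMT2 mean was at 0.733 of the control mean (log2 fold change −0.37 ± 0.14 SE, limma adjusted p = 0.215). The log2 fold change of SRSF12 was −0.24 without siEHMT2 replicate 3, −0.22 with the GC correction and −0.18 without both libraries numbered 3. SRSF11, an SR-related protein also known as p54, was at 43.6, 43.8 and 43.7 FPKM against 47.9, 50.3 and 50.6. Its siEHMT2 libraries were almost equal and all lower, at 0.882 of the control mean (−0.18 ± 0.08, limma adjusted p = 0.297; −0.08 with the GC correction). SRSF7, which also takes part in mRNA export, was at 60.5, 55.6 and 58.0 FPKM against 65.6, 60.9 and 75.7. Here too no libraries overlapped, though siEHMT2 replicate 1 lay just below siNC replicate 2 (−0.21 ± 0.11, limma adjusted p = 0.326), and its log2 fold change was −0.12 without siNC replicate 3 and −0.099 with the GC correction.

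The TRA2 proteins bind GAA-rich enhancers and share their targets. TRA2B was at 20.5, 19.8 and 18.6 FPKM against 22.0, 21.6 and 24.2, with no overlap (−0.19 ± 0.09, limma adjusted p = 0.307). Without both libraries numbered 3 its log2 fold change was −0.11 (limma adjusted p = 0.356). TRA2A was at 23.6, 23.4 and 27.1 FPKM against 29.98, 29.2 and 26.8, where siEHMT2 replicate 3 lay above siNC replicate 3 (−0.21 ± 0.10, limma adjusted p = 0.301). TRA2A was among the genes called without both libraries numbered 3 (−0.32, limma adjusted p = 0.0354), in a fit that called 15.0% of all genes. It was also called with weighted libraries (−0.31, limma adjusted p = 0.0082), in a fit that called 29.5% of all genes. The libraries numbered 3 had the smallest weights (0.276 in siEHMT2 and 0.376 in siNC), so the calls of both fits are not independent. With the GC correction the log2 fold change of TRA2A was −0.10 (limma adjusted p = 0.696), and that of TRA2B was −0.12.

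SRSF2, SRSF3 and SRSF6 were the SR genes with the most spread within groups. SRSF2 was at 203, 175 and 149 FPKM in siEHMT2 and 169.96, 158 and 228 in siNC, so libraries of 1 group differed more than the group means of 176 ± 26.9 and 185 ± 37.5 (SD, n = 3; limma adjusted p = 0.855). SRSF6, which regulates exons of tau among others, was at 118, 106 and 80.6 FPKM against 108, 107 and 137. SRSF3, a small SR protein active in splicing and export, was at 87.5, 74.3 and 68.3 FPKM against 78.1, 73.5 and 98.8. All 3 genes had their highest value in siNC replicate 3 and their lowest in siEHMT2 replicate 3. Without both of these libraries their log2 fold changes were 0.20, 0.06 and 0.09 in the same order, against −0.07, −0.21 and −0.12 with all 6, so their direction rested on the libraries numbered 3.

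Both extremes fell on these libraries for 6 of the 13 SR and TRA2 genes: SRSF2, SRSF3, SRSF4, SRSF6, SRSF12 and TRA2B. The same held for HNRNPA3, HNRNPK, HNRNPL, SYNCRIP and PTBP2. The share of all tested genes with both extremes there was not computed, so the count cannot be called particular to the SR genes. Counted apart, replicate 3 of siNC was the highest of the 6 libraries for 11 of the 13 SR and TRA2 genes, and for 20.1% of all tested genes. Replicate 3 of siEHMT2 was the lowest for 7 of the 13, and for 26.2% of all. Relative to each gene's own mean, the median SR and TRA2 gene stood at 0.19 on the log2 scale in siNC replicate 3 and at −0.10 in siEHMT2 replicate 3, while it lay between −0.07 and 0.04 in the other 4 libraries. The hnRNP genes stood at 0.09 and −0.03 in the same libraries, and lowest in siNC replicate 2, at −0.10. Median transcript GC content was 44.2% for the SR and TRA2 genes, 43.9% for the hnRNP genes and 50.2% for all tested genes with a value. After a correction for GC content the SR and TRA2 median was −0.08 in place of −0.12, and without both libraries numbered 3 it was 0.0038. With the same GC correction the hnRNP median was 0.098 in place of 0.042. Whether GC content accounts for the SR pattern was not tested.

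**Figure D3:**
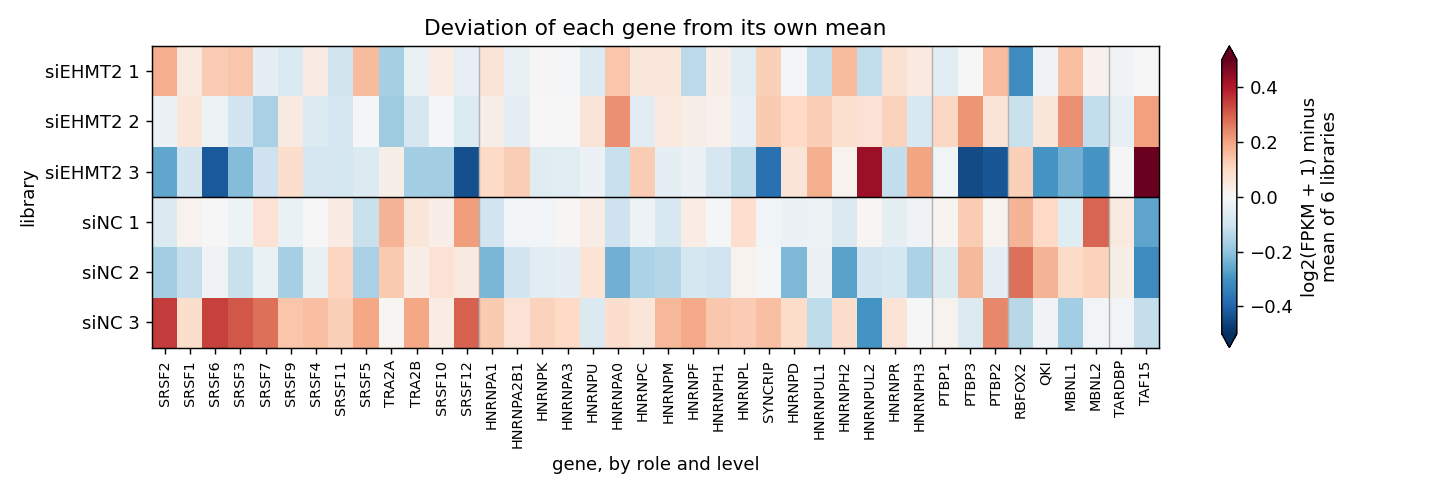
Deviation of log2(FPKM + 1) from the mean of the 6 libraries for each tested gene (columns, by role and level) in each library (rows); red is above and blue below the gene's own mean, and the colours saturate at the ends of the bar. Most SR genes at the left are red in siNC replicate 3, and TAF15 at the right is red in siEHMT2 replicate 3.

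The remaining SR genes differed little between group means. SRSF1, the founding SR protein and a proto-oncoprotein, was at 149 ± 8.83 FPKM in siEHMT2 and 149 ± 10.6 in siNC (SD, n = 3), with a 95% interval of the log2 fold change from −0.23 to 0.24. SRSF4 was at 47.2 against 49.8, SRSF5 at 39.0 against 37.7, SRSF9 at 51.0 against 49.8 and SRSF10, a regulator of splicing in heat shock and mitosis, at 19.0 against 20.3 FPKM. All of these groups overlapped.

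An annotated transcript of the nonsense-mediated decay type was present in GENCODE release 29 for 13 of the 13 SR and TRA2 genes and for 11 of the 18 hnRNP genes. The share was 43.7% of the 10895 tested genes that have a coding transcript. FPKM per gene combines such transcripts with the coding ones, so a change in the balance between them could pass without a change in the values given here.

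Of the hnRNP genes 11 were higher and 7 lower (median log2 fold change 0.04), and none passed; the smallest limma adjusted p of the group was 0.381. After rescaling to equal FPKM sums, 8 were higher and the median was −0.0049. HNRNPL, which binds CA repeats, was at 55.4, 56.0 and 52.7 FPKM against 61.2, 58.4 and 63.2. It was the hnRNP gene with no overlap between groups, at 0.898 of the control mean (−0.15 ± 0.09, limma adjusted p = 0.381). HNRNPUL2, a relative of the nuclear scaffold protein hnRNP U, was at 41.3, 47.4 and 60.9 FPKM against 45.3, 42.0 and 36.4. Its largest value was in siEHMT2 replicate 3 (0.25 ± 0.15, limma adjusted p = 0.397), and without that library the log2 fold change was 0.10. Across 19 alternative settings the log2 fold change of HNRNPUL2 ran from 0.019 to 0.38. A readthrough gene that shares its sequence, HNRNPUL2-BSCL2, was at 19.1 ± 3.70 against 17.4 ± 1.44 FPKM.

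HNRNPA0, which binds AU-rich elements of inflammatory mRNAs, was at 113, 120.0 and 94.5 FPKM against 95.1, 86.2 and 109. Replicate 3 of siEHMT2 lay within the siNC range and the other 2 siEHMT2 libraries above it; without both libraries numbered 3, HNRNPA0 was called (0.36, limma adjusted p = 0.0439, in the fit that called 15.0% of all genes). Its log2 fold change was 0.17 with all libraries (limma adjusted p = 0.505), 0.099 without siEHMT2 replicate 2, 0.094 without siNC replicate 2, 0.27 without siEHMT2 replicate 3 and 0.26 without siNC replicate 3. HNRNPA1 itself, at 269.9 ± 6.77 against 248 ± 31.7 FPKM, had a log2 fold change of 0.13 ± 0.12. It has 75 processed-pseudogene rows in the table with summed means of 19.3 FPKM, and reads may be divided between such copies and the gene. HNRNPH2, which binds G-rich elements, was at 51.8, 49.0 and 46.8 FPKM against 44.0, 38.2 and 49.2 (0.17 ± 0.11, limma adjusted p = 0.448).

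Of the other hnRNP genes, HNRNPA2B1 was at 167 against 164 FPKM, HNRNPA3 at 114 against 118, HNRNPC at 88.4 against 83.4 and HNRNPD, a regulator of mRNA decay, at 53.7 against 49.99. HNRNPF was at 71.5 against 76.4, HNRNPH3 at 39.4 against 36.3 and HNRNPK, which binds C-rich sequence, at 130.2 against 134 FPKM. HNRNPM was at 83.97 against 82.0, HNRNPR at 43.5 against 42.1 and SYNCRIP at 51.6 against 54.2 FPKM. HNRNPU, which organises chromatin-bound RNA, was at 112 against 114, and its antisense gene HNRNPU-AS1 at 24.3 against 28.6 FPKM; no strand setting is given in the sources used here, so reads of the pair cannot be told apart. The groups overlapped for each of these 11 genes. HNRNPH1, the closest relative of HNRNPH2, was at 71.3, 70.8 and 65.7 FPKM against 69.4, 64.9 and 76.5, with both extremes in siNC. HNRNPUL1 was at 46.4, 55.2 and 57.4 FPKM against 49.7, 49.6 and 46.2, also with overlap.

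Among the PTB genes, PTBP1, the form of most non-neuronal cells, had a mean of 81.7 FPKM over the 6 libraries, and PTBP2, the form of developing neurons, one of 3.87. PTBP1 was at 78.5, 87.8 and 80.9 FPKM against 82.4, 77.8 and 82.7 (0.02 ± 0.09, limma adjusted p = 0.920). PTBP2 was at 4.36, 4.03 and 2.59 FPKM against 3.88, 3.67 and 4.69. PTBP3 was at 10.97, 12.9 and 7.76 FPKM against 12.1, 12.4 and 10.4. In both of the rarer genes siEHMT2 replicate 3 was the lowest library and the groups otherwise mixed; without it their log2 fold changes were 0.04 and 0.04, against −0.14 and −0.15 with all libraries.

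The tissue regulators were lower in 3 of 4 tested cases, with a median log2 fold change of −0.19, and none passed. RBFOX2, which binds GCAUG motifs and acts in neural, muscle and mesenchymal splicing, was the most abundant, at 24.002, 27.8 and 32.8 FPKM in siEHMT2 and 33.96, 36.6 and 27.2 in siNC. The replicates numbered 3 again crossed the others, so the groups overlapped (−0.20 ± 0.15, limma adjusted p = 0.487); without both, RBFOX2 was at −0.43 (limma adjusted p = 0.0331, where 15.0% of all genes were called). It was at −0.10 without siEHMT2 replicate 1 (limma adjusted p = 0.753), −0.12 without siNC replicate 2, −0.31 without siEHMT2 replicate 3 and −0.32 without siNC replicate 3. QKI, which controls splicing and circular RNA formation, was at 6.83 ± 0.976 against 7.76 ± 0.568 FPKM.

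Muscleblind proteins promote adult splice forms. MBNL2 was at 3.46, 3.05 and 2.59 FPKM in siEHMT2 and 4.39, 3.77 and 3.36 in siNC, so that 1 siEHMT2 library lay just above the lowest siNC library (−0.26 ± 0.13, limma adjusted p = 0.323). With the GC correction MBNL2 was at −0.10, and with weighted libraries it was called (−0.32, limma adjusted p = 0.0276, where 29.5% of all genes were called). MBNL1 was at 7.73, 8.22 and 5.66 FPKM against 6.56, 7.40 and 5.98 (0.09 ± 0.14). The MBNL2 to MBNL1 ratio separated the groups, at 0.448, 0.371 and 0.458 in siEHMT2 and 0.669, 0.509 and 0.562 in siNC. The difference of the log2 ratio, taken with 1 FPKM added to both genes, was −0.35 (exact two-sided permutation test, p = 0.1, the smallest that 3 against 3 libraries allow; 0.3 after adjustment over the 6 ratios).

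The other 5 ratios of related genes were compared in the same way. HNRNPH2 to HNRNPH1 was 0.725, 0.691 and 0.712 in siEHMT2 and 0.634, 0.588 and 0.643 in siNC, again without overlap (exact permutation p = 0.1, adjusted 0.3). This ratio is uncertain, because the readthrough gene RPL36A-HNRNPH2 was at 2.72, 2.102 and 11.03 FPKM against 8.98, 22.4 and 9.70. Added to HNRNPH2, it gave 54.4 ± 3.37 FPKM in siEHMT2 and 57.5 ± 4.02 in siNC, on the other side of the control. The ratios TRA2A to TRA2B (1.26 against 1.27), PTBP2 to PTBP1 (0.0445 against 0.0503), PTBP3 to PTBP1 (0.128 against 0.144) and HNRNPUL2 to HNRNPUL1 (0.936 against 0.849) overlapped between groups, with exact permutation p from 0.4 to 1.

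**Figure D4:**
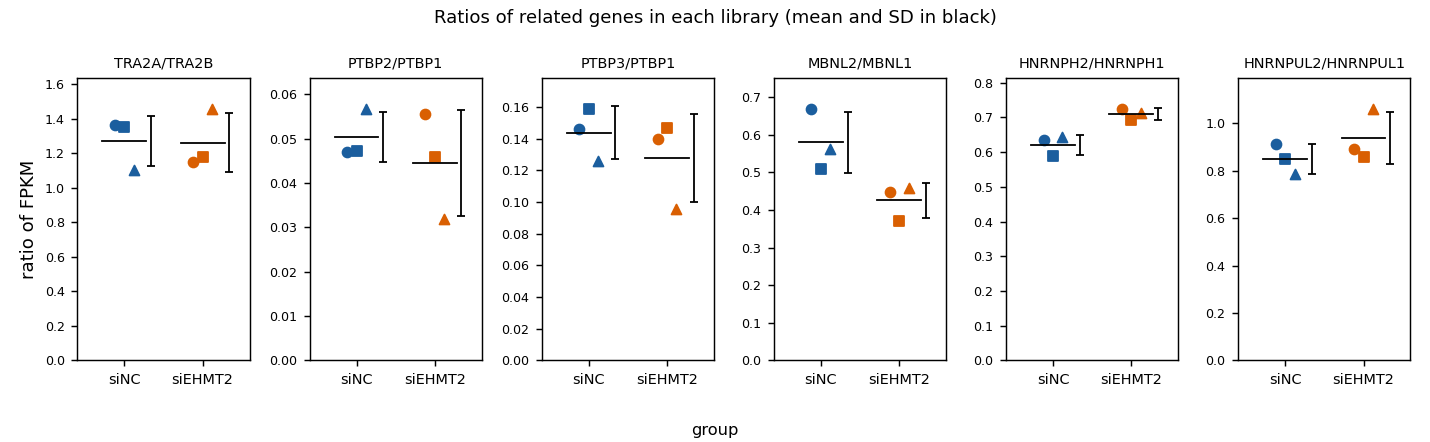
Ratio of the FPKM of 2 related genes in each library, by group, with 1 marker shape per replicate number (circle 1, square 2, triangle 3), the group mean as a black line and its SD as a black bar. The groups are apart for MBNL2/MBNL1 and HNRNPH2/HNRNPH1 and mixed for the other 4.

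TAF15, an RNA-binding protein that joins transcription with RNA processing, had the largest difference of the 40 tested genes. It was at 34.4, 39.7 and 48.8 FPKM in siEHMT2 and 28.4, 27.4 and 31.5 in siNC. Every siEHMT2 library was above every siNC library, and siEHMT2 replicate 3, the library with the most remaining EHMT2 of its group, held the most TAF15. The ratio of the means was 1.41 (log2 fold change 0.47 ± 0.13, 95% interval 0.16 to 0.77), and the limma adjusted p of 0.125 missed the threshold. Across 19 alternative settings its log2 fold change ran from 0.34 to 0.58 and it was called in 2 of them. These were the fit without both libraries numbered 3, which called 15.0% of all genes, and the weighted fit, which called 29.5%. The libraries numbered 3 had the smallest weights (0.276 in siEHMT2 and 0.376 in siNC), so the 2 calls are not independent. EWSR1, a relative of TAF15, had 25.1 ± 1.66 against 25.7 ± 0.649 FPKM (SD, n = 3), with overlapping groups. This gene was picked once its values had been seen. TARDBP, which encodes TDP-43 and represses cryptic exons, was the tested gene with the smallest spread within groups, at 62.7, 61.6 and 63.0 FPKM against 65.7, 64.8 and 62.8 (−0.04 ± 0.08, limma adjusted p = 0.812).

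Genes that act on or beside these factors were read from 4 further lists in the same fit. SRPK2, which phosphorylates SR proteins, was the 1 gene of any list that passed, where 0.552% of all tested genes did. It fell from 8.73, 9.09 and 7.10 FPKM in siNC to 3.76, 4.35 and 4.63 in siEHMT2 (−0.82 ± 0.13, limma adjusted p = 0.0422). In 9 of 19 alternative settings it was called. The 19 include the fit without both libraries numbered 3, which called 15.0% of all genes, and the weighted fit, which called 29.5%. SRPK2 was 1 of 10 tested SR kinase and import genes, of which 3 were higher and 7 lower (median −0.17). Among 42 spliceosome core genes 26 were higher and 16 lower (median 0.04), with SF3B2, a U2 particle subunit, at 36.5 ± 0.558 against 28.8 ± 0.742 FPKM (limma adjusted p = 0.101) and CDC5L, a PRP19 complex subunit, at 16.5 ± 0.837 against 21.1 ± 1.18 (0.117). The groups of both were apart, in opposite directions.

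The nonsense-mediated decay list had 6 of 14 genes higher and 8 lower (median −0.03), with UPF3B at 30.1 ± 2.72 against 37.5 ± 1.22 FPKM (limma adjusted p = 0.151) and MAGOH at 21.0 ± 2.15 against 17.7 ± 3.33 (0.406). In the list of other splicing regulators 16 of 38 tested genes were higher and 22 lower (median −0.03). MBNL3, the third muscleblind gene, was at 5.33, 6.10 and 4.47 FPKM against 8.24, 8.37 and 6.76, with no overlap (−0.48 ± 0.13, limma adjusted p = 0.116). HNRNPAB, a relative of HNRNPD, was at 153, 164 and 130.2 FPKM against 113, 102 and 129, also with no overlap (0.38 ± 0.13, limma adjusted p = 0.166). Neuron-restricted regulators of that list were near 0, such as NOVA1 (0.0055 to 0.0749 FPKM) and ELAVL2 (0 to 0.0214), and RBFOX1 was listed at 0 in each library.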

How the data were processed

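RNA of 6 SK-NEP-1 libraries, 3 per group, was analysed. Groups were taken from the sample titles; the cell line field of some samples carries another running number after the line's name. Values are FPKM per gene as deposited by the authors; fastp, HISAT2 2.2.1, SAMtools 1.4.1 and StringTie 2.2.0 with build hg19 are named in the submitters' processing notes. The annotation, the strand setting and the read depth are not given in the sources used here. The deposited FPKM values were transformed to log2(FPKM + 1), which understates changes of low genes. Genes with a mean of at least 1 FPKM (12859 of 55765) were tested with limma 3.58.1 (R 4.3.3) with a mean-variance trend, with no block, and Benjamini-Hochberg adjustment over all of them; the threshold was an adjusted p of 0.05. The number of libraries and their spread limit the precision. Ratios of related genes were tested by exact two-sided permutation, and the Benjamini-Hochberg adjustment over the ratios was done with scipy 1.17.1. GC content and transcript classes came from GENCODE release 29 and matched 91.2% of tested genes by name; promoters came from RefSeq on GRCh38.p14, used for sequence only.

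The genes and lists were chosen with earlier results of these data known. Values per library are given for the 8 genes with the smallest p, for the most abundant and the most different gene of each role and for the genes of the ratios. HNRNPA0, SRSF3 and SRSF6 were added after their values were seen. EWSR1 was also added after its values were seen, and is given by its group means. A further gene is not reported here. Of the other lists, called genes or the 2 with the smallest p were named. Alternatives were pseudocounts of 0.1 and 0.5, other filters, 3 rescalings, no trend, array weights, a replicate block, a GC correction and libraries left out. Only the main limma fit was run on simulated data, with independent noise and added changes larger than any seen in the splicing factor genes. The alternatives were not simulated, and no result given here rests on that run.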

Additional observations from a re-analysis of the deposited data

How the results depend on the processing

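With 3 libraries a group the count of called genes moved widely, and the cause was not tested. Of all genes, limma called 71 as deposited, 134 with a minimum mean of 5 FPKM, 30 without trend and 31 after rescaling to the same sum (10 higher and 21 lower, against 44 and 27). It called 0 with no filter (3641 at an unadjusted p under 0.05), 0 to 174 with 1 library left out, 1928 without both libraries numbered 3 and 3797 with array weights, whose estimation stopped short of its convergence tolerance. Lacking siEHMT2 replicates 1, 2 or 3 the counts were 6, 0 and 174, and lacking siNC replicates 1, 2 or 3 they were 0, 0 and 4. The deviations of same-numbered libraries had correlations of −0.350, 0.0871 and −0.393, so the numbers were not taken to pair the samples; the replicate block called 0 genes (1845 at an unadjusted p under 0.05), alone and with the GC correction (1601). Splicing factor genes called were 5 of 40 with array weights (TRA2A, HNRNPA0, RBFOX2, MBNL2 and TAF15), where 29.5% of all genes were called. They were 4 of 40 without both libraries numbered 3 (the same without MBNL2), where 15.0% of all genes were called. In each other setting they were 0. The median log2 fold change of the splicing factor genes was 0.04 without both libraries numbered 3 and ran from −0.07 to 0.01 with 1 library left out.

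Single genes changed direction as follows, SRSF6 (−0.21 as deposited), PTBP3 (−0.15) and PTBP2 (−0.14) among them. After rescaling to the same sum these were SRSF1 −0.042, SRSF9 −0.0074, HNRNPA2B1 −0.022, HNRNPM −0.0081, HNRNPR −0.0017 and PTBP1 −0.024; by median ratio, SRSF1 −0.014; to the same sum without mitochondrial genes, SRSF1 −0.034, HNRNPA2B1 −0.014, HNRNPM −0.00067 and PTBP1 −0.016. With array weights they were SRSF2 0.051, HNRNPA2B1 −0.0043, HNRNPA3 0.0024, HNRNPH1 0.042, HNRNPK 0.013, HNRNPU 0.0052, SYNCRIP 0.10, PTBP2 0.031 and PTBP3 0.038. With the GC correction, alone or with the replicate block, they were SRSF10 0.016, HNRNPA3 0.051, HNRNPH1 0.021, HNRNPK 0.069, HNRNPM −0.012, HNRNPU 0.10, SYNCRIP 0.034, PTBP1 −0.068, PTBP2 0.0045 and TARDBP 0.044. Without both libraries numbered 3 they were SRSF2 0.20, SRSF3 0.088, SRSF4 0.0038, SRSF6 0.061, HNRNPA3 0.022, HNRNPH1 0.082, HNRNPK 0.037, SYNCRIP 0.14 and PTBP2 0.12. With 1 library left out, the ranges that crossed 0 were SRSF1 −0.050 to 0.055, SRSF5 −0.016 to 0.16, HNRNPU −0.065 to 0.0051, HNRNPR −0.0018 to 0.12, PTBP1 −0.023 to 0.057, SRSF2 −0.18 to 0.088, HNRNPA2B1 −0.030 to 0.069, HNRNPH1 −0.072 to 0.044, SYNCRIP −0.17 to 0.081, PTBP2 −0.25 to 0.037, PTBP3 −0.30 to 0.037, SRSF9 −0.033 to 0.12, HNRNPM −0.023 to 0.13, SRSF3 −0.21 to 0.0096, HNRNPA3 −0.071 to 0.0034 and HNRNPK −0.070 to 0.015. Summing rows that share a symbol was not run, because no symbol repeats.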
